A study of Mus musculus with 18 samples.

Results

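Fibroblast, smooth muscle and endothelial support-cell markers are followed here across lung organoid and tumoroid cultures of the mouse. The set is 10 of the 46603 genes in each deposited table: Pdgfra, Pdgfrb, Dcn, Lum, Tcf21, Tnxb, Acta2, Acan, Pecam1 and Cdh5. They were chosen by name as markers of cells other than epithelium and matched to Ensembl gene identifiers through the GENCODE vM21 annotation (build GRCm38). Each of the 10 was listed in all 18 tables. Of these genes, 6 were taken as fibroblast markers (Pdgfra, Pdgfrb, Dcn, Lum, Tcf21, Tnxb), 1 as a smooth muscle marker (Acta2), 1 as a cartilage matrix marker (Acan) and 2 as endothelial markers (Pecam1, Cdh5).

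Lung fibroblasts carry receptors for platelet-derived growth factor (PDGF) and lay down a collagen matrix that small proteoglycans such as decorin and lumican bind and organise. Smooth muscle cells and myofibroblasts contract with alpha smooth muscle actin, and endothelial cells hold to each other through PECAM-1 and VE-cadherin at the walls of vessels. Epithelial organoids are often grown together with such stromal cells, which supply growth factors, so the bulk RNA of a culture can be a mixture of epithelial and support-cell RNA.

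All cultures came from mice with a human EGFR transgene carrying T790M and L858R, knocked into 1 Col1a1 locus behind a lox-stop-lox cassette and driven by the CAG promoter. Epithelial cells sorted with stains that included EpCAM, CD31 and CD45 were exposed to adenovirus carrying Cre (Ad-Cre, which removes the stop) or GFP (Ad-GFP, the control), and were grown in Matrigel with added neonatal lung support cells, described as mesenchymal endothelial in the labels and as mesenchymal in the methods. Whether all cultures received the same preparation is uncertain. Some Ad-Cre cultures were transplanted through the trachea into the lungs of immunocompromised nude mice (Foxn1 Nu/Nu), and the tumours were dissociated and cultured again, with support cells, before RNA was taken. RNA of 18 cultures was sequenced, and the authors' expected counts and TPM (a level scaled for gene length and depth, so that each culture has the same total) were used.

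The 10 organoid cultures fell into 3 groups by their tissue origin. Airway organoids were 5 cultures: tracheal club cells (sorted as NGFR-negative) and tracheal basal cells (sorted as NGFR-positive), each with Ad-GFP and Ad-Cre, and a bronchiolar subculture of Sca1-positive bronchioalveolar stem cells (BASC) with Ad-Cre. Alveolar organoids were 3 cultures: Sca1-negative alveolar type 2 (AT2) cells with Ad-GFP and Ad-Cre, and an alveolar BASC subculture with Ad-Cre. Mixed BASC organoids were 2 cultures, with Ad-GFP and Ad-Cre. The BASC subcultures had been picked by hand by morphology. The 8 tumoroid cultures were 3 AT2-derived, 3 mixed BASC-derived and 1 bronchiolar BASC-derived transplant tumoroids, and 1 autochthonous tumoroid grown from a tumour that arose after Ad-Cre was given to the airways of a mouse. Mice given Ad-Cre for autochthonous tumours were adults, in cohorts of both sexes.

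These groups have limits as models. Each organoid condition was 1 culture, and the Ad-GFP and Ad-Cre cultures of club, basal, AT2 and mixed BASC cells were aliquots of 1 sort each. By the methods the alveolar, bronchiolar and mixed BASC cultures were all subcultures of BASC organoids, so alveolar and bronchiolar BASC shared a sorted population across the groups compared, while the tests and SDs treat the cultures as independent. The organoids were sequenced from TruSeq libraries on HiSeq and the tumoroids from BGI libraries on DNBSEQ, so platform and transplantation cannot be told apart. The AT2-derived tumoroids carried a sorting label of NGFR-negative cells and were placed here by their stated AT2 origin. In their titles mixed BASC-derived tumoroids 2 and 3 shared a leading number with the bronchiolar BASC-derived tumoroid, and AT2-derived tumoroids 2 and 3 shared another. Whether such a number stood for 1 mouse was not stated. Total expected counts ran from 27772660 to 97191624 in organoids (median 55182025) and from 15327265 to 23355938 in tumoroids (median 22464438), the lowest being AT2-derived tumoroid 3.

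The epithelial labels were checked against marker levels. Sftpc, the surfactant protein C gene of AT2 cells, was at 61211, 60435 and 60996 TPM in the 3 alveolar organoids and at 3.17 to 347 TPM in the 5 airway organoids. Krt5, a basal cell keratin, was at 426 to 2063 TPM in the airway organoids and at 1.25 to 71.0 TPM in the alveolar ones. The club cultures differed little from the basal ones on these markers: Krt5 was at 2063 and 1899 TPM in club and 1694 and 1549 TPM in basal cultures, and the club cell gene Scgb1a1 was at 11.4 and 18.4 TPM in club and 10.4 and 7.03 TPM in basal cultures. Scgb1a1 was higher in every other organoid, at 50.9 (AT2 Ad-GFP), 1221 (AT2 Ad-Cre), 762 (alveolar BASC), 6392 (bronchiolar BASC), 1173 and 2298 TPM (mixed BASC Ad-GFP and Ad-Cre). The sort marker Ngfr was at 53.1 and 50.3 TPM in club and 48.3 and 46.6 TPM in basal cultures. By RNA after culture the club cultures thus did not match their label on Ngfr or Scgb1a1. The cells were sorted with an antibody to NGFR before culture, so these RNA levels do not test the sort of club and basal cells. Other secretory genes were abundant in both, with Scgb3a2 at 2909 and 2351 TPM in club and 2053 and 1649 TPM in basal cultures, and Cyp2f2 at 3041 and 2555 TPM against 2838 and 1822 TPM. Foxj1, of ciliated cells, was at 73.6 to 197 TPM in airway and 0.89 to 12.7 TPM in alveolar organoids. Epcam was between 30.8 and 1099 TPM and Cdh1 between 63.7 and 559 TPM across the 18 cultures.

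The support-cell label was met unevenly by its own markers. Summed over the 10 members, TPM in the airway organoids was 164 (club Ad-GFP), 188 (club Ad-Cre), 188 (basal Ad-GFP), 197 (basal Ad-Cre) and 538 (bronchiolar BASC Ad-Cre). In the alveolar organoids it was 1296 (AT2 Ad-GFP), 635 (AT2 Ad-Cre) and 429 (alveolar BASC Ad-Cre), and in the mixed BASC organoids 195 (Ad-GFP) and 490 (Ad-Cre). The 4 tracheal cultures were nearly equal at 185 ± 14.2 TPM (mean ± SD, n = 4), and the bronchiolar BASC culture alone made the airway range overlap the alveolar one. The geometric mean of the alveolar organoids was 3.10-fold that of the airway organoids, a log2 difference of 1.63 against a pooled SD of 0.74. In bulk RNA, fewer cells of a type and less RNA per cell cannot be told apart. The members together made up 0.0164 to 0.130% of all TPM in organoids and 0.00398 to 0.0860% in tumoroids.

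The largest single part of the sum was usually decorin transcripts. Dcn was the most abundant member in 16 of the 18 cultures, with 26.4 to 71.4% of the summed TPM there, and Acta2 was the most abundant in the autochthonous tumoroid (43.9%) and in AT2-derived tumoroid 1 (36.8%). The endothelial pair, Pecam1 and Cdh5, summed to 0.15 to 0.51 TPM in organoids and 0.30 to 4.55 TPM in tumoroids. Fibroblast and contractile genes were therefore what the sum measured, with the endothelial pair and Tcf21 adding almost nothing.

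**Figure D1:**
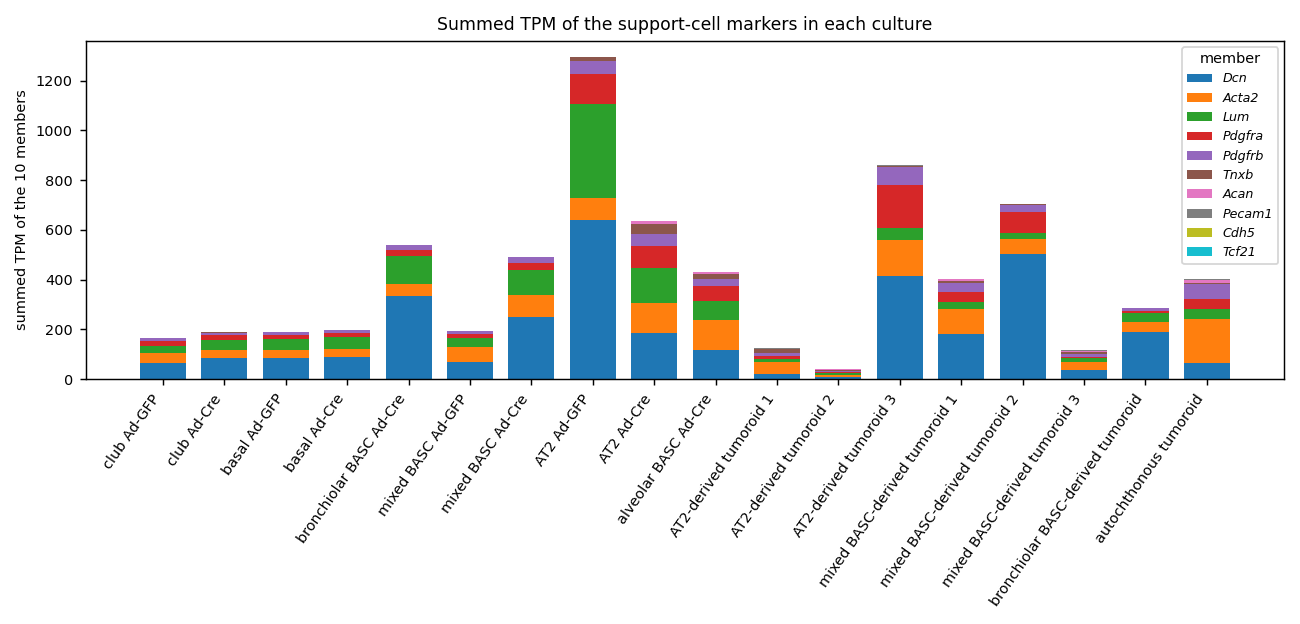
Summed TPM of the 10 members in each of the 18 cultures, as stacked bars with each member in its own colour and the axis starting at 0. The sum was lowest at 39.8 TPM in AT2-derived tumoroid 2 and highest at 1296 TPM in the AT2 Ad-GFP organoid, and Dcn was the largest segment in 16 of the bars.

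The comparison of alveolar with airway organoids asked whether the cultures of the distal and proximal programmes held different amounts of support-cell RNA. It was tested gene by gene with edgeR quasi-likelihood tests on the counts of all 10 organoids, with Benjamini-Hochberg adjustment over every gene tested, and a gene was called at an adjusted p below 0.05. Of the 8 members that passed the filter on low counts, 7 were called higher in alveolar organoids, 0 lower and 1 was not called. Most of the transcriptome differed between these groups: 56.4% of 19349 genes were called, 27.2% higher and 29.2% lower, and by DESeq2 11249 genes were called. The median log2 fold change of the 8 members tested was 1.97, beside a median of -0.07 over all genes tested. Tcf21 and Cdh5 did not pass the filter and were not tested.

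**Figure D2:**
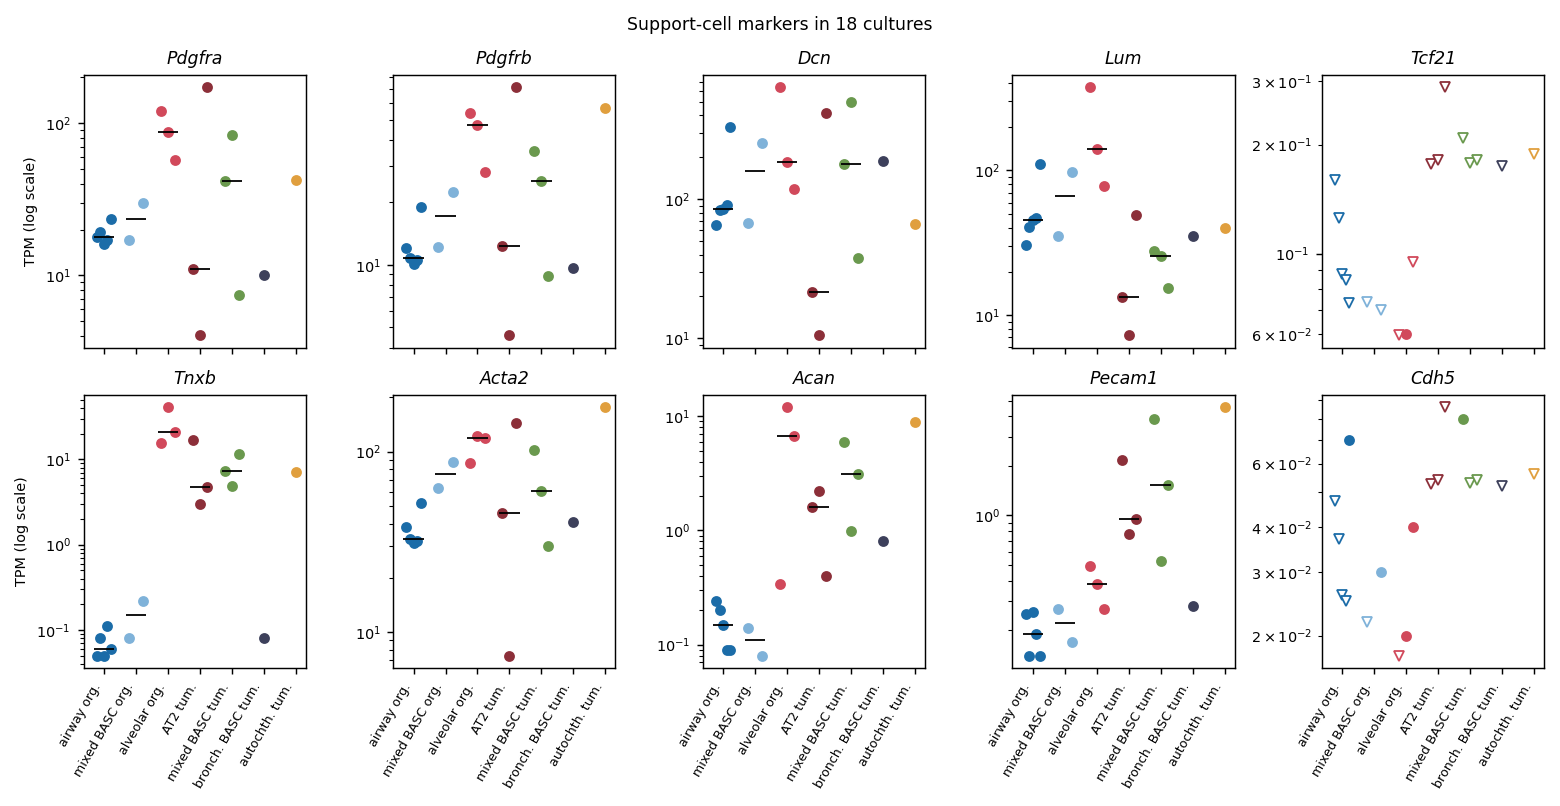
TPM of each member on a log axis, 1 panel per gene, by culture group, with a filled circle for a culture with more than 3 counts, an open triangle at the TPM of 3 counts for a culture with 3 or fewer, and a line at the group median. Pdgfra, Pdgfrb, Tnxb and Acta2 sit higher in all 3 alveolar than in all 5 airway organoids, while the tumoroids spread over a 6.83-fold (Lum) to 208-fold (Tnxb) range.

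Pdgfra (ENSMUSG00000029231, chr5:75152292-75198215, plus strand) encodes PDGF receptor alpha, which binds PDGF-A among other ligands and marks many lung fibroblasts. Its level was 17.8, 19.3, 16.01 and 17.1 TPM in the club Ad-GFP, club Ad-Cre, basal Ad-GFP and basal Ad-Cre organoids and 23.6 TPM in the bronchiolar BASC organoid. In the alveolar organoids it was 121 TPM (AT2 Ad-GFP), 87.4 TPM (AT2 Ad-Cre) and 57.4 TPM (alveolar BASC). The alveolar cultures were all above the airway cultures, with no overlap, and the AT2 Ad-GFP culture was highest. Pdgfra was 5.25-fold higher in alveolar organoids by edgeR quasi-likelihood (log2 fold change 2.39, SE 0.24, Benjamini-Hochberg adjusted p = 4.6e-05). The mixed BASC organoids, at 17.0 and 29.8 TPM, lay at the airway level or slightly above it. The gene overlaps the antisense gene Gm42802, and whether counting used the strand was not stated, so a small share of its counts could belong to that gene.

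Pdgfrb (ENSMUSG00000024620, chr18:61045150-61085061, plus strand) encodes PDGF receptor beta, carried by pericytes and smooth muscle cells as well as fibroblasts. Airway organoids had 12.1 (club Ad-GFP), 10.8 (club Ad-Cre), 10.1 (basal Ad-GFP), 10.6 (basal Ad-Cre) and 19.0 TPM (bronchiolar BASC). Alveolar organoids had 53.8 (AT2 Ad-GFP), 47.1 (AT2 Ad-Cre) and 27.9 TPM (alveolar BASC), again above every airway culture. The difference was 3.795-fold by edgeR quasi-likelihood (log2 fold change 1.92, SE 0.27, Benjamini-Hochberg adjusted p = 0.00034). Pdgfra exceeded Pdgfrb in all 10 organoids, by a TPM ratio of 1.24 to 1.78 in airway and 1.86 to 2.25 in alveolar cultures. In tumoroids the ratio ran from 0.74 to 3.31, and it was below 1 in the autochthonous tumoroid, AT2-derived tumoroids 1 and 2 and mixed BASC-derived tumoroid 3.

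Dcn (ENSMUSG00000019929, chr10:97479609-97518143, plus strand) encodes decorin, a small leucine-rich proteoglycan that binds collagen fibrils. Its level in airway organoids was 65.4 (club Ad-GFP), 83.6 (club Ad-Cre), 84.9 (basal Ad-GFP), 91.0 (basal Ad-Cre) and 333 TPM (bronchiolar BASC), and in alveolar organoids 641 (AT2 Ad-GFP), 184 (AT2 Ad-Cre) and 119 TPM (alveolar BASC). The bronchiolar BASC culture exceeded both Ad-Cre alveolar cultures, so the groups overlapped. Dcn was not called: the log2 fold change was 1.41 (SE 0.70, edgeR quasi-likelihood, Benjamini-Hochberg adjusted p = 0.115). Single cultures moved it both ways. The log2 fold change was 2.09 and called without the bronchiolar BASC culture (edgeR, adjusted p = 0.0133, between 0.0133 and 0.998 over 19 alternatives), 0.38 without the AT2 Ad-GFP culture and 0.0033 with Ad-Cre cultures only.

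Lum (ENSMUSG00000036446, chr10:97565128-97572703, plus strand) encodes lumican, a proteoglycan of the same family that regulates the spacing of collagen fibrils. Airway organoids had 30.3 (club Ad-GFP), 40.9 (club Ad-Cre), 45.8 (basal Ad-GFP), 46.6 (basal Ad-Cre) and 111 TPM (bronchiolar BASC), and alveolar organoids had 378 (AT2 Ad-GFP), 142 (AT2 Ad-Cre) and 78.2 TPM (alveolar BASC). As with Dcn, the bronchiolar BASC culture lay above the alveolar BASC culture and the groups overlapped. Lum was 4.02-fold higher in alveolar organoids by edgeR quasi-likelihood (log2 fold change 2.01, SE 0.56, Benjamini-Hochberg adjusted p = 0.0133). Without the AT2 Ad-GFP culture the log2 fold change was 1.17 and Lum was no longer called (edgeR, adjusted p = 0.0964, between 0.00065 and 0.208 over 19 alternatives). With Ad-Cre cultures only it was 0.89 and not called either.

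Dcn and Lum are neighbours on chromosome 10, 46985 bases apart in the same direction, followed by Kera 34176 bases beyond Lum and Epyc 30376 bases beyond Kera. Their levels kept close to each other in organoids, where Dcn over Lum was 1.299 to 3.01. It was lower in alveolar cultures (1.299 to 1.70) than in airway cultures (1.85 to 3.01), with no overlap. In tumoroids the ratio spread from 1.45 to 19.7, and mixed BASC-derived tumoroid 2 (19.7), AT2-derived tumoroid 3 (8.38), mixed BASC-derived tumoroid 1 (6.45) and the bronchiolar BASC-derived tumoroid (5.41) had the most Dcn per Lum. Of the other 9 small leucine-rich proteoglycans, 8 were tested between alveolar and airway organoids and 8 were called higher, with a median log2 fold change of 3.83. The 3 with the largest change were Fmod (log2 fold change 5.86), Aspn (5.64) and Ogn (4.60), and Bgn was the most abundant at a mean of 836 TPM over the 18 cultures.

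Acan (ENSMUSG00000030607, chr7:79053483-79115099, plus strand) encodes aggrecan, the large proteoglycan of cartilage, and served as the cartilage matrix member. Airway organoids had 0.24 (club Ad-GFP), 0.20 (club Ad-Cre), 0.15 (basal Ad-GFP), 0.09 (basal Ad-Cre) and 0.09 TPM (bronchiolar BASC), on 19 to 33 counts each. Alveolar organoids had 0.34 (AT2 Ad-GFP), 11.97 (AT2 Ad-Cre) and 6.69 TPM (alveolar BASC), on 109, 4853 and 1329 counts. Both Ad-Cre alveolar cultures stood far above the rest, whereas the AT2 Ad-GFP culture was only slightly above the highest airway culture. Acan was called higher in alveolar organoids by edgeR quasi-likelihood (log2 fold change 5.54, SE 0.88, Benjamini-Hochberg adjusted p = 0.00066). The size rested on few cultures and on the scale: the log2 fold change was 4.78 without the AT2 Ad-Cre culture and 2.15 on log2(TPM + 1) by limma, and Acan was called in all 19 alternatives.

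Col2a1, the most abundant of 10 other cartilage genes (mean 17.0 TPM), was high in the same cultures as Acan. It was at 66.1 TPM in AT2 Ad-Cre and 60.3 TPM in alveolar BASC, against 0.53 TPM in AT2 Ad-GFP and 0.29 to 1.45 TPM in the 5 airway organoids. Among tumoroids Col2a1 was highest in the autochthonous one (89.3 TPM), where Acan was also highest. Of the 9 cartilage genes tested between alveolar and airway organoids, 7 were called higher and 1 lower, with a median log2 fold change of 2.45, the largest being Cnmd (6.75), Col2a1 (6.19) and Col9a1 (5.73). Summed TPM of the 10 cartilage genes was 20.6 (AT2 Ad-GFP), 160 (AT2 Ad-Cre) and 128 (alveolar BASC) in alveolar organoids, 23.8, 22.8, 29.7, 30.2 and 60.3 in airway organoids in the order given above, and 22.4 and 42.8 in mixed BASC organoids. In the tumoroids it ran from 19.6 (mixed BASC-derived tumoroid 2) to 168 (autochthonous), and 3 of the 10 genes were below 1 TPM in every culture. The part of cartilage-type cells in the Acan result was not tested.

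Tnxb (ENSMUSG00000033327, chr17:34670535-34719815, plus strand) encodes tenascin-X, a glycoprotein of connective tissue. In airway organoids it was at 0.05 (club Ad-GFP), 0.08 (club Ad-Cre), 0.05 (basal Ad-GFP), 0.11 (basal Ad-Cre) and 0.06 TPM (bronchiolar BASC), on 9 to 31 counts. In alveolar organoids it was at 15.6 (AT2 Ad-GFP), 40.8 (AT2 Ad-Cre) and 20.9 TPM (alveolar BASC), on at least 6645 counts. No other member separated the groups so widely, and the mixed BASC organoids, at 0.08 and 0.22 TPM, were near the airway level. Tnxb was 446-fold higher in alveolar organoids by edgeR quasi-likelihood (log2 fold change 8.80, SE 0.43, Benjamini-Hochberg adjusted p = 1.7e-06). On log2(TPM + 1) by limma the log2 fold change was 4.53, since the airway levels were far below the added 1. The end of the gene touches the pseudogene Cyp21a2-ps, and how shared reads were divided there is uncertain.

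Tnxb did not keep proportion with the other fibroblast members. Its TPM over that of Pdgfra was 0.0025 to 0.0064 in airway, 0.129 to 0.467 in alveolar organoids and 0.0079 to 1.58 in tumoroids. The AT2 gene list was also higher in alveolar organoids: summed TPM of its 6 genes was 55.5, 138, 41.2, 41.8 and 2915 in the airway organoids in the order given above, 80908, 75618 and 76296 in the alveolar ones and 746 and 3428 in the mixed BASC ones. In the tumoroids that sum was 136060 (autochthonous), 143660, 96735 and 30502 (AT2-derived 1 to 3), 67775, 33143 and 56857 (mixed BASC-derived 1 to 3) and 8095 (bronchiolar BASC-derived). Sftpc was the most abundant AT2 gene, with a mean of 36154 TPM, and 5 of the 6 were called higher in alveolar organoids (median log2 fold change 6.23, largest Sftpc 9.67, Napsa 7.92 and Lamp3 6.34). The part of epithelial cells in the Tnxb result was not tested. Of the 6 other lecticans and tenascins, 3 were called higher and 2 lower (median log2 fold change 0.70), beside 27.2% higher and 29.2% lower over all genes. They were led by Bcan (4.29), Vcan (3.74) and Ncan (-3.32), and Tnc was the most abundant at a mean of 164 TPM.

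Tcf21 (ENSMUSG00000045680, chr10:22817281-22820174, minus strand) encodes a transcription factor of lung mesenchyme and its lipid-storing fibroblasts. It had 2 counts in AT2 Ad-GFP, 4 in AT2 Ad-Cre, 1 in alveolar BASC, 1 in the autochthonous tumoroid and 0 in the other 14 cultures. A count of 0 allows up to 0.0700 to 0.160 TPM in the organoids at 0, taking 3 counts as the limit for counting error, and up to 0.174 to 0.288 TPM in the tumoroids. Tcf21 was thus not above the floor of 3 counts in 17 of 18 cultures, while Pdgfra had at least 361 counts in all 18. The antisense gene Gm10824 overlaps it, so even the few counts are of uncertain origin.

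Acta2 (ENSMUSG00000035783, chr19:34241090-34255590, minus strand) encodes alpha smooth muscle actin, made by smooth muscle cells and myofibroblasts. Airway organoids had 38.1 (club Ad-GFP), 33.0 (club Ad-Cre), 31.1 (basal Ad-GFP), 31.8 (basal Ad-Cre) and 51.7 TPM (bronchiolar BASC), and alveolar organoids had 86.4 (AT2 Ad-GFP), 122 (AT2 Ad-Cre) and 119 TPM (alveolar BASC). All alveolar cultures exceeded all airway cultures, and the mixed BASC cultures, at 62.6 and 87.6 TPM, lay between or level with the lowest alveolar one. Acta2 was 3.27-fold higher in alveolar organoids by edgeR quasi-likelihood (log2 fold change 1.71, SE 0.19, Benjamini-Hochberg adjusted p = 8.0e-05). Its coding sequence is similar to that of other actins, so some reads may have been assigned to the wrong actin gene. In the list of other actins 3 of 3 tested were called lower, Acta1 (log2 fold change -2.41), Actg1 (-0.52, the most abundant at a mean of 3060 TPM) and Actb (-0.44). Actg2, kept in the smooth muscle list, was at 0.51 (SE 0.50) and was not called.

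Other smooth muscle and pericyte genes gave a mixed picture beside Acta2. Of 16 listed genes 14 were tested, of which 9 were called higher and 2 lower in alveolar organoids, with a median log2 fold change of 2.05. Among called genes the largest were Hhip (5.40), Cox4i2 (2.74) and Kcnj8 (2.72), while Rgs5 (2.83) was not called. The 2 called lower were Notch3 (-2.10) and Smtn (-1.58). Smtn was among the more abundant, at 46.5 to 72.0 TPM in airway and 15.5 to 25.5 TPM in alveolar organoids. Summed TPM of the 16 genes was nonetheless similar in both groups, at 134, 106, 118, 128 and 157 in airway and 157, 169 and 155 in alveolar organoids. Tagln was the most abundant gene (mean 60.02 TPM over 18 cultures). Myh11, which is restricted to mature smooth muscle, was at 0.13 to 0.32 TPM in airway, 1.11 to 1.37 TPM in alveolar organoids and 0.04 to 0.56 TPM in tumoroids.

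Pecam1 (ENSMUSG00000020717, chr11:106654217-106750628, minus strand) encodes PECAM-1, the CD31 antigen of endothelial cells. Airway organoids had 0.25 (club Ad-GFP), 0.14 (club Ad-Cre), 0.26 (basal Ad-GFP), 0.19 (basal Ad-Cre) and 0.14 TPM (bronchiolar BASC), on 9 to 23 counts, and alveolar organoids had 0.49 (AT2 Ad-GFP), 0.38 (AT2 Ad-Cre) and 0.27 TPM (alveolar BASC), on 21 to 59 counts. The levels did not overlap, but the lowest alveolar culture exceeded the highest airway culture by only 0.01 TPM. Pecam1 was called 2.02-fold higher in alveolar organoids by edgeR quasi-likelihood (log2 fold change 1.01, SE 0.33, Benjamini-Hochberg adjusted p = 0.0259). It was no longer called on log2(TPM + 1) or log2(TPM + 0.1) by limma, or without club Ad-Cre, basal Ad-Cre, AT2 Ad-GFP or AT2 Ad-Cre, where log2 fold changes were 0.20, 0.69, 0.94, 1.02, 0.81 and 1.07, or with Ad-Cre cultures only (1.07), and the adjusted p reached 0.111.

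Cdh5 (ENSMUSG00000031871, chr8:104101625-104144511, plus strand) encodes VE-cadherin, the junction protein of endothelial cells. It had at most 10 counts in any culture, the highest being the bronchiolar BASC organoid, and more than 3 counts in only 5 of the 18 (AT2 Ad-Cre 4, mixed BASC Ad-Cre 5, alveolar BASC 4, bronchiolar BASC 10, mixed BASC-derived tumoroid 1 4). Its TPM was at most 0.08, a level at which no difference between groups was detectable. The antisense gene Gm29682 overlaps Cdh5.

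Several genes typical of endothelial cells were near 0 with Cdh5, and others were not. In the list of 22 other endothelial genes, Cldn5 was at most 0.15 TPM, Emcn 0.12, Tie1 0.09, Robo4 0.02, Sox17 0.09 and Kdr 0.46 TPM in the 18 cultures, and 10 of the 22 stayed below 1 TPM in every culture. The summed TPM of the list, carried by other genes, ran from 18.6 to 524. In airway organoids it was 24.8, 23.9, 18.6, 18.7 and 54.4 TPM in the order given above, in alveolar ones 212, 162 and 157 TPM, and in mixed BASC ones 20.03 and 42.2 TPM. Esam, the most abundant (mean 54.9 TPM), made up most of the alveolar sums, at 144, 101 and 110 TPM. In tumoroids the sum was 204 (autochthonous), 184, 524 and 266 (AT2-derived 1 to 3), 156, 309 and 331 (mixed BASC-derived 1 to 3) and 60.8 TPM (bronchiolar BASC-derived), with Car4 alone at 418 TPM in AT2-derived tumoroid 2. Between alveolar and airway organoids 8 of 16 tested genes were called higher and 2 lower (median log2 fold change 1.12), beside 27.2% higher and 29.2% lower over all genes. At the top were Erg, Esam (6.54) and Car4 (6.51, on at most 4 counts in any airway organoid). Erg had 0 counts in all 5 airway organoids, so no fold is given, and was at 0.43, 2.11 and 1.11 TPM in the alveolar ones. Eng reached 73.7, Egfl7 41.2, Cd34 33.0, Flt1 22.6, Ramp2 19.2, Flt4 18.3, Plvap 5.40, Icam2 2.27 and Vwf 2.14 TPM in the culture where each was highest. Of these, Eng, Egfl7, Ramp2 and Plvap were called higher in alveolar organoids and Flt4 lower (log2 fold change -2.74). Esam and Car4 did not follow the genes near 0: Esam was at 0.27 to 0.52 TPM in tracheal organoids and 5.86 TPM in bronchiolar BASC, and at 142 TPM in AT2-derived tumoroid 1, and Car4 was highest in the tumoroid with the lowest member sum. Which cells held these transcripts was not tested, so they were not read as endothelial content.

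Wider gene lists placed the fibroblast members beside other stromal and epithelial genes. Of 36 other fibroblast genes 35 were tested between alveolar and airway organoids, 29 were called higher and 1 lower, and the median log2 fold change was 2.17. The largest were Col14a1 (log2 fold change 5.76, SE 0.63), Fgf10 (4.97, SE 0.43) and Col6a1 (3.27, SE 0.21). Their summed TPM was 2512, 2191, 2137, 2197 and 4823 in airway organoids, 7794, 8470 and 5864 in alveolar and 2200 and 4743 in mixed BASC organoids, with Sparc the most abundant (mean 933 TPM). As for Dcn and Lum, the bronchiolar BASC culture stood above the 4 tracheal cultures, but here it stayed below all 3 alveolar cultures. Col1a1 carries the EGFR transgene in 1 of its copies, and it was higher in alveolar organoids by a log2 fold change of 0.90 (SE 0.26, edgeR quasi-likelihood, Benjamini-Hochberg adjusted p = 0.0141).

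Pan-epithelial markers moved in the opposite direction to the fibroblast members, while the AT2 list and most alveolar type 1 genes were higher in alveolar organoids. All 5 pan-epithelial genes were called lower in alveolar organoids (median log2 fold change -1.65), with Epcam at -2.44, Krt19 (the most abundant, mean 1557 TPM) at -1.999 and Krt18 at -1.65. Their summed TPM was 5158, 5064, 5440, 5733 and 8019 in airway, 1506, 1751 and 2023 in alveolar and 5279 and 6821 in mixed BASC organoids. The mixed BASC Ad-Cre and bronchiolar BASC cultures were high in this sum and exceeded the alveolar BASC culture in Dcn and Lum. In Pdgfra, Pdgfrb and Tnxb they were below every alveolar culture. The part of a different share of epithelial RNA in the member differences was not tested.

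Remaining lists are given by their calls between alveolar and airway organoids, where 27.2% of all genes tested were called higher and 29.2% lower. PDGF ligands, the partners of the receptors, had 0 of 4 higher and 1 lower (Pdgfa, log2 fold change -0.51, the most abundant at a mean of 74.6 TPM), with a median of -0.46. VEGF ligands had 3 of 5 higher (Vegfc 2.16, Vegfd 1.83, Vegfb 1.15; median 1.15), and Vegfa was the most abundant at a mean of 395 TPM. Mesothelial genes had 3 of 4 tested lower (Upk1b -6.12, Msln -5.08, Upk3b -1.66, median -3.37), Msln being the most abundant at a mean of 664 TPM. Only Msln and Upk1b were abundant, at 825 to 2153 and 189 to 447 TPM in airway organoids. Wt1, Upk3b and Lrrn4 were at most 0.22, 0.14 and 0.24 TPM in any culture. Which cells held Msln and Upk1b was not tested, so the list was not read as mesothelial content. Immune genes had 3 of 7 tested higher and 2 lower (Itgam -4.34, Ptprc 4.33, median 1.02), with Cd68 the most abundant (mean 40.7 TPM). Of those called higher, Adgre1 had 0 counts in all 5 airway organoids and only 0.29, 0.15 and 0.01 TPM in the alveolar ones, so no fold is given, and Ptprc was at most 0.03 TPM in airway organoids and 0.91 TPM in any culture. Among epithelial lists, alveolar type 1 genes had 3 of 4 higher and 1 lower (Rtkn2 6.96, Ager 5.58, Hopx 1.68, median 3.63, Ager at a mean of 1461 TPM), club and ciliated genes 4 of 5 lower (Foxj1 -4.90, Sox2 -4.62, Scgb3a2 -4.46, median -4.46, Scgb1a1 at a mean of 1304 TPM) and basal genes 4 of 4 lower (Krt14 -5.81, Krt5 -5.69, Ngfr -5.40, median -5.54, Krt5 at a mean of 554 TPM).

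Within BASC alone the alveolar and bronchiolar subcultures gave the same contrast on 1 culture each, and no test was made. The alveolar over bronchiolar TPM ratio was 2.43 for Pdgfra, 1.47 for Pdgfrb, 2.30 for Acta2 and 1.93 for Pecam1. It was far larger for Tnxb, at 348, and for Acan, at 74.3, and below 1 for Dcn (0.359) and Lum (0.707). The proteoglycans Dcn and Lum thus ran against the receptors, Acta2, Tnxb and Acan in this pair.

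Promoter sequences are printed for the 4 members that were called higher together in alveolar organoids and were in the promoter table used, Pdgfra, Acta2, Tnxb and Acan. The sequences are the 250 bases upstream of the annotated start, 5′ to 3′ on the strand of the gene, from RefSeq on build GRCm38.p6. They are chr5:75152001-75152250 on the plus strand for Pdgfra, chr19:34255374-34255623 on the minus strand for Acta2, chr17:34670285-34670534 on the plus strand for Tnxb and chr7:79052976-79053225 on the plus strand for Acan. Capitals mark each E-box, CANNTG, a motif bound by basic helix-loop-helix factors.
Pdgfra: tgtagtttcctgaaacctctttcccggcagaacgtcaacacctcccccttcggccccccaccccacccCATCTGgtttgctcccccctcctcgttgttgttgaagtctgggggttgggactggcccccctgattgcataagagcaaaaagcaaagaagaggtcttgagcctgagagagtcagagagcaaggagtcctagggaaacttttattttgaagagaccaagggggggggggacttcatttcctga
Acta2: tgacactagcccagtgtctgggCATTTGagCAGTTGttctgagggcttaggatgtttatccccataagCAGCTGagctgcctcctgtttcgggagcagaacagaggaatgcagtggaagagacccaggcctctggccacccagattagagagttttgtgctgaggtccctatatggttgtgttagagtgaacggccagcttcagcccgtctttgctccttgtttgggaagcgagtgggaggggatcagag
Tnxb: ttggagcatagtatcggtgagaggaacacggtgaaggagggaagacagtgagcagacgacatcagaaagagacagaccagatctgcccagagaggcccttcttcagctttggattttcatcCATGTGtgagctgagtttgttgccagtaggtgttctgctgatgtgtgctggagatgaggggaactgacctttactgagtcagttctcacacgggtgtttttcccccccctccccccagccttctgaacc
Acan: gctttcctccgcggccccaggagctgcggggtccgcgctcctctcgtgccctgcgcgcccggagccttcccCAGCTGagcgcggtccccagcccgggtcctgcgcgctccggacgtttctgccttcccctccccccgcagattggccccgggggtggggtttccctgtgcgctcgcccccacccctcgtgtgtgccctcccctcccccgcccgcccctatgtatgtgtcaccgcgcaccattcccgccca
Of the 10 members 5 matched the table, the other being Tcf21. Each window was searched on both strands for a CArG box (CC, 6 letters A or T, GG), for the E-box and for the ETS core CCGGAAG with its reverse complement. The E-box was found 1 time in Pdgfra, 3 times in Acta2, 1 time in Tnxb, 1 time in Acan and 0 times in Tcf21, and 66.2% of all 32851 promoters of 27025 genes hold at least 1. No exact match to this CArG pattern and no ETS core was in the 5 windows, and 1.47% and 6.91% of all promoters hold them. The Acta2 window holds ccctatatgg and ccttgtttgg, which each depart from the CArG pattern by 1 letter. Such near matches were not searched for, so the windows cannot be said to lack CArG-like elements. These matches describe the letters in the windows only.

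In summed TPM the 8 tumoroids spanned a wider range of support-cell RNA than the 10 organoids, and each range leaned on 1 culture. As the mean of log2(TPM + 1) over the members, tumoroids ran from 1.90 to 3.92 and organoids from 2.50 to 4.33, ranges of similar width. Summed over the 10 members, TPM was 860 in AT2-derived tumoroid 3, 705 in mixed BASC-derived tumoroid 2, 404.7 in mixed BASC-derived tumoroid 1 and 401 in the autochthonous tumoroid. It was 286 in the bronchiolar BASC-derived tumoroid, 124 in AT2-derived tumoroid 1, 116 in mixed BASC-derived tumoroid 3 and 39.8 in AT2-derived tumoroid 2. The highest was 21.6-fold the lowest, against 7.89-fold over the organoids and 1.20-fold over the 4 tracheal ones, and the AT2-derived group alone held both ends. The coefficient of variation was 0.794 in tumoroids, 0.811 in all organoids and 0.0770 in the tracheal organoids. On the log2 scale the SD of the sums was 1.497 in tumoroids and 1.01 in all organoids, and whether these differed was not tested. Mixed BASC-derived tumoroid 1 and the autochthonous tumoroid were neighbours that hardly differed. Without AT2-derived tumoroid 2 the log2 of highest over lowest was 2.89 instead of 4.43, a 7.42-fold range, and without the AT2 Ad-GFP culture the organoid range was 3.87-fold.

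Single members spread to different degrees over the 8 tumoroids. Pdgfra had its lowest level at 4.03, its median at 26.4 and its highest at 173 TPM, a 42.97-fold range, and Pdgfrb ran from 4.58 over a median of 18.8 to 71.8 TPM. Dcn ran from 10.5 over 123 to 503 TPM, a 47.9-fold range. Lum had the narrowest range, 6.83-fold, from 7.24 over 26.8 to 49.4 TPM. AT2-derived tumoroid 2 was lowest for all 4 of these genes and for Acta2, whose level ran from 7.41 over 53.1 to 176 TPM. Tnxb ran from 0.08 TPM in the bronchiolar BASC-derived tumoroid over a median of 5.99 to 16.6 TPM in AT2-derived tumoroid 1, and the bronchiolar culture was the only tumoroid at the level of airway organoids. Acan ran from 0.40 over 1.91 to 8.95 TPM, lowest in AT2-derived tumoroid 3 and highest in the autochthonous tumoroid. Pecam1 ran from 0.28 over 1.24 to 4.55 TPM, with the bronchiolar BASC-derived tumoroid lowest and the autochthonous tumoroid highest.

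The order of the tumoroids was not the same for every member. Of the 8 members with more than 3 counts in all 8 tumoroids, the autochthonous tumoroid was highest in 3 (Acta2, Acan, Pecam1), AT2-derived tumoroid 3 in 3 (Pdgfra, Pdgfrb, Lum), mixed BASC-derived tumoroid 2 in 1 (Dcn) and AT2-derived tumoroid 1 in 1 (Tnxb). AT2-derived tumoroid 3, high in fibroblast members, was lowest in Acan and had the highest Vim of the 18 cultures, 2965 TPM, and the lowest Epcam, 30.8 TPM. Its wider fibroblast sum was 13802 TPM, against 1312 to 6629 TPM in the other 7 tumoroids (autochthonous 4686, AT2-derived 1 and 2 1664 and 1312, mixed BASC-derived 1 to 3 4027, 6629 and 1981, bronchiolar BASC-derived 3378), and its pan-epithelial sum was 945 TPM. The pan-epithelial sum of the others was 1775 (autochthonous), 4011 and 3508 (AT2-derived 1 and 2), 3269, 3398 and 4868 (mixed BASC-derived 1 to 3) and 7136 TPM (bronchiolar BASC-derived). The part of epithelial content in the tumoroid spread was not tested. AT2-derived tumoroid 3 also had the fewest counts, and the part of depth was not tested.

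AT2-derived and mixed BASC-derived tumoroids were compared to ask whether origin went with support-cell RNA after transplantation. Of the 8 members tested 0 were called, and edgeR quasi-likelihood called 0 of 15470 genes (0%), with 144 at an unadjusted p below 0.05 and 7 called by DESeq2. Member log2 fold changes (AT2-derived minus mixed BASC-derived, 3 against 3 cultures) ran from -0.99 (Acan, SE 0.83) to 0.48 (Pdgfra, SE 1.39), with a median of 0.12 beside 0.04 over all genes. The standard errors, 0.63 to 1.43, exceeded 7 of the 8 differences in size, the exception being Acan. P-values with tumoroids treat the cultures as independent. Among the lists, the median was 0.38 for other fibroblast, 0.17 for smooth muscle and pericyte and 0.34 for endothelial genes, and 0 genes of any list were called.

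Transplant tumoroids were then compared with organoids of the same origin, 7 against 5 cultures with origin as a term, to ask what changed after growth in a host, platform included. The organoids included the AT2 and mixed BASC Ad-GFP cultures, while all transplant tumoroids came from Ad-Cre cultures, so virus also differed in part. Among 8 members tested, 1 was called higher, 1 lower and 6 were not called. Over all 15860 genes 23.8% were called, 13.4% higher and 10.4% lower. That balance turned in other settings: 1611 genes were higher and 2072 lower without a filter on low counts. By limma on log2(TPM + 1) 1590 were higher and 2575 lower. The member median was -0.20 beside 0.01 over all genes.

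Lum fell. It was at 378 and 142 TPM in the AT2 organoids and at 13.4, 7.24 and 49.4 TPM in the AT2-derived tumoroids. Mixed BASC organoids had 35.0 and 97.9 TPM, and tumoroids of that origin had 27.9, 25.6 and 15.5 TPM. The bronchiolar BASC organoid had 111 TPM and its tumoroid 35.0 TPM. Within each origin every tumoroid lay below every organoid. The log2 fold change was -2.32 (SE 0.56, 0.200-fold, edgeR quasi-likelihood, Benjamini-Hochberg adjusted p = 0.0144), and Lum was called in all 19 alternatives.

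Pecam1 rose. It was at 0.49 and 0.38 TPM in the AT2 organoids and at 2.16, 0.77 and 0.95 TPM in AT2-derived tumoroids. Mixed BASC organoids had 0.27 and 0.17 TPM, and their tumoroids 3.86, 0.53 and 1.53 TPM, while the bronchiolar pair had 0.14 and 0.28 TPM. All tumoroids lay above the organoids of their origin, at 10 to 125 counts. The log2 fold change was 2.18 (SE 0.59, 4.52-fold, edgeR quasi-likelihood, Benjamini-Hochberg adjusted p = 0.0241). The call was lost on log2(TPM + 1) by limma (0.75), with Ad-Cre organoids only (2.26), and without AT2 Ad-Cre (2.17), mixed BASC Ad-GFP (2.08), mixed BASC Ad-Cre (1.90) or AT2-derived tumoroid 1 (1.88), with an adjusted p of up to 0.135.

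The other members had no call in this comparison. Log2 fold changes were -0.12 (Pdgfra, SE 0.89), -0.28 (Pdgfrb, SE 0.58), -0.52 (Dcn, SE 0.97), 0.74 (Tnxb, SE 1.47), -0.35 (Acta2, SE 0.52) and 1.31 (Acan, SE 1.79). Acan was called, at 3.60 (edgeR, adjusted p = 0.0200, between 0.0200 and 0.985 over 19 alternatives), without the AT2 Ad-Cre organoid.

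**Figure D3:**
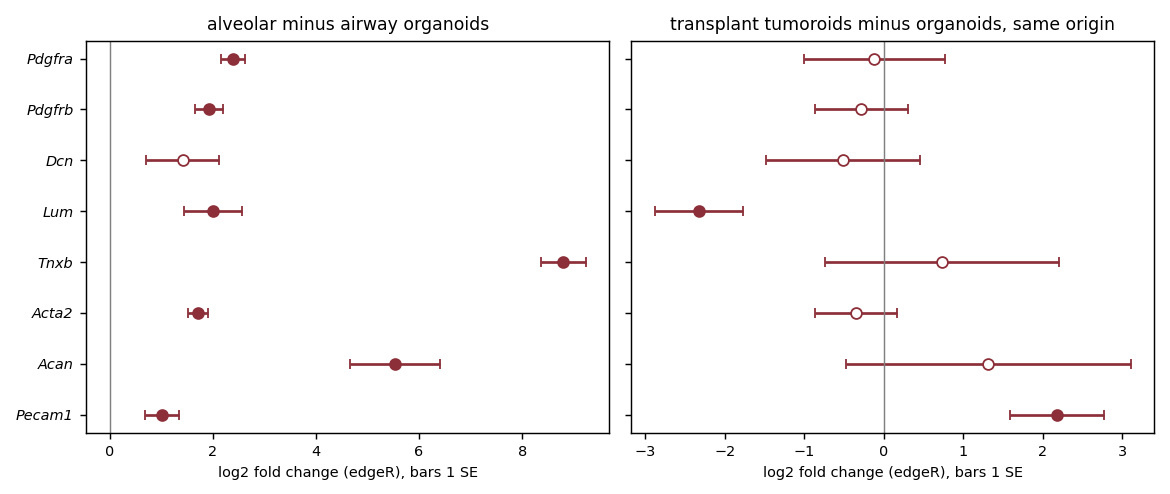
Log2 fold change of each tested member with 1 standard error on either side, for alveolar minus airway organoids and for transplant tumoroids minus organoids of the same origin, with filled symbols at an adjusted p below 0.05. In the first comparison 7 of 8 members are called and positive, and in the second only Lum (-2.32) and Pecam1 (2.18) are called.

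The other lists had shares of calls both below and above the 23.8% called over all genes with transplantation, and some medians were far from 0. Other fibroblast genes had 3 of 33 lower (Mfap5 -3.06, Postn -2.16, Fbn1 -1.97) and 0 higher (median -0.40), smooth muscle and pericyte genes had 0 of 13 called (median -0.45) and small leucine-rich proteoglycans 0 of 7 (median -0.10). Among these proteoglycans Fmod (-2.30, SE 1.29), Aspn (-1.67, SE 1.14) and Prelp (-1.64, SE 0.73) were also negative without being called, and whether Lum differed from them was not tested. Endothelial genes had 1 of 11 higher (Car4 7.63, on at most 3 counts in the BASC organoids compared, median 1.04), and cartilage genes 2 of 7 lower (Hapln1 -2.21, Col11a1 -1.76, median 0.56). Lecticans and tenascins had 1 of 4 lower (Tnn -1.72, median -0.45), PDGF ligands 0 of 4 called (median -0.42), VEGF ligands 1 of 5 higher (Vegfb 1.11, median -0.33) and actins 1 of 3 higher (Actb 0.61, median 0.43). Immune genes had 1 of 5 higher and 1 lower (S100a8 2.35, Cd68 -0.97, median 0.60), and mesothelial genes 0 of 2 called (median -3.10). Pan-epithelial (0 of 5, median 0.07), AT2 (0 of 6, median 1.01) and alveolar type 1 genes (0 of 4, median 0.52) had no call, while club and ciliated genes had 1 of 5 lower (Scgb3a2, median -2.58) and basal genes 2 of 4 lower (Krt5 and Trp63, the latter -2.40, median -4.49). No fold is given for Scgb3a2 and Krt5, which had 0 counts in all 3 AT2-derived tumoroids and at most 1.53 and 0.30 TPM in the mixed BASC-derived ones. In the bronchiolar pair Scgb3a2 was at 795 TPM in the organoid and 2824 TPM in the tumoroid, and Krt5 at 426 and 103 TPM.

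Whether the change with transplantation differed between origins was tested as an interaction, the change in mixed BASC minus the change in AT2. Epithelial markers also changed differently. Mixed BASC organoids had Krt5 at 1357 and 808 TPM and Sftpc at 228 and 1525 TPM. Their tumoroids had Krt5 at most 0.30 TPM and Sftpc at 21223 to 53064 TPM. In AT2, Sftpc was at 61211 and 60435 TPM in organoids and 23662 to 123100 TPM in tumoroids, with Krt5 at most 5.03 TPM. The part of this difference in the interaction was not tested. No member of the 8 tested was called (0 of 8), in an edgeR quasi-likelihood fit that called 40 of 17592 genes (0.227%), with 3055 at an unadjusted p below 0.05 and 2023 called by DESeq2. Tnxb came nearest: it was at 0.08 and 0.22 TPM in mixed BASC organoids and at 7.31, 4.90 and 11.7 TPM in their tumoroids, but at 15.6 and 40.8 TPM in AT2 organoids and 16.6, 3.01 and 4.73 TPM in theirs. All 3 mixed BASC-derived tumoroids were above both of their organoids, 2 of 3 AT2-derived tumoroids were below both of theirs, and the tumoroids of the 2 origins overlapped. The interaction of Tnxb was 7.42 (SE 1.297, edgeR quasi-likelihood, Benjamini-Hochberg adjusted p = 0.0549), short of the threshold, and it was past it in 6 of 15 alternatives, with adjusted p between 1.4e-07 and 0.245.

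Acan had an interaction of 6.85 (SE 1.98, edgeR quasi-likelihood, Benjamini-Hochberg adjusted p = 0.129). It was at 0.14 and 0.08 TPM in mixed BASC organoids and 5.98, 0.99 and 3.11 TPM in their tumoroids, and at 0.34 and 11.97 TPM in AT2 organoids and 1.61, 2.20 and 0.40 TPM in theirs. Every mixed BASC-derived tumoroid was above both of its organoids, while in AT2 the tumoroids lay between the organoids. The other 6 members had interactions of 0.42 (Acta2) to 2.15 (Dcn), with standard errors of 1.07 to 2.15. All 8 were above 0, with a median of 1.88 beside -0.06 over all genes. The AT2 list had a median of 4.27, the other fibroblast genes 1.31 and the small leucine-rich proteoglycans 3.50. The list gene called was Ngfr, of the basal list, at -8.24 (SE 1.13, edgeR quasi-likelihood, Benjamini-Hochberg adjusted p = 0.0401), with at most 5 counts in each of the 6 tumoroids. That call held in only 7 of 15 alternatives.

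Ad-Cre was compared with Ad-GFP within the 4 sorted populations that had both, to ask whether activation of the EGFR transgene went with support-cell RNA. Of the 8 members tested 0 were called, and edgeR quasi-likelihood called 0 of 17749 genes (0%), with 350 at an unadjusted p below 0.05 and 5 called by DESeq2. The members' median log2 fold change was 0.15 beside -0.005 over all genes. Other fibroblast genes had a median of 0.18 and endothelial genes of 0.14, with 0 called in any list.

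The populations went different ways in the matrix members. Dcn was lower with Ad-Cre in AT2 (641 against 184 TPM, a ratio of 0.287) and higher in mixed BASC (67.5 against 252 TPM, 3.73), and Lum was lower in AT2 (378 against 142 TPM, 0.375) and higher in mixed BASC (35.0 against 97.9 TPM, 2.79). In club and basal cultures both ratios were 1.02 to 1.35. Tnxb and Pecam1 kept 1 direction each in all 4 pairs. Tnxb was higher with Ad-Cre: 0.05 against 0.08 TPM in club, 0.05 against 0.11 in basal, 15.6 against 40.8 in AT2 and 0.08 against 0.22 in mixed BASC. Its log2 fold change was 1.20 (SE 0.14, edgeR quasi-likelihood, Benjamini-Hochberg adjusted p = 0.994, between 0.00053 and 1.00 over 14 alternatives), and DESeq2 called it.

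Pecam1 was lower with Ad-Cre, at 0.25 against 0.14 TPM (Ad-GFP against Ad-Cre) in club, 0.26 against 0.19 in basal, 0.49 against 0.38 in AT2 and 0.27 against 0.17 in mixed BASC cultures. Its log2 fold change was -0.56 (SE 0.26) and was not called. Acan had an Ad-Cre over Ad-GFP ratio of 35.2 in AT2 and of 0.57 to 0.83 in the other 3 populations. Counting the 8 members with more than 3 counts in each pair, 4 were higher with Ad-Cre in club, 6 in basal, 3 in AT2 and 6 in mixed BASC cultures, with median log2 ratios of -0.02, 0.05, -0.28 and 0.84. The mixed BASC pair had the largest of the 4 medians, with Pdgfra and Pdgfrb at ratios of 1.76 and 1.83.

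Genes whose level followed the members most closely were found by Pearson correlation of log2(TPM + 1) with the mean log2(TPM + 1) of the members. Over the 10 organoids, among 15192 genes, they were Zfp354c (r = 0.998, 0.90 to 6.19 TPM), Hoxb9 (0.996, 0.33 to 4.68 TPM), Mmp2 (0.996, 73.0 to 443 TPM), Gata2 (0.995, 1.26 to 17.4 TPM) and Tpst1 (0.995, 10.1 to 30.2 TPM). Over the 8 tumoroids, among 14692 genes, they were Gpr176 (0.986, 1.10 to 19.3 TPM), Hhipl2 (0.985), Ttbk2 (0.981), Nfat5 (0.980) and Psd3 (0.980). No gene was in both sets of 5. These values describe few cultures that share libraries and fall into groups, and the largest r among so many genes is high by selection.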

How the data were processed

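For each of the 18 cultures the authors deposited a table with the RSEM expected count and TPM of 46603 genes. By the submitters' processing notes, reads were trimmed with Trimmomatic 0.39, aligned to GRCm38 with STAR 2.6.1d and quantified with RSEM 1.3.2. Of the 46603 gene identifiers 46005 matched a GENCODE vM21 symbol and 598 did not.

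Expected counts were rounded, genes with low counts removed with filterByExpr, and libraries scaled by TMM. Tests were edgeR 4.0.16 quasi-likelihood tests in R 4.3.3, adjusted by Benjamini-Hochberg over all genes tested at 0.05, beside DESeq2 1.42.0 and limma 3.58.1. Tables were made with Python 3.11.15 and pandas 2.3.3. Levels are the deposited TPM. A level on 3 counts or fewer was taken as not above the floor, which covers counting error only. The procedure was tested on simulated data.

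The members and lists were chosen with earlier results of these data known. There were 20 lists with 160 genes, 150 of them not members. Genes were named by a rule: all 10 members, from every other list at most 3 genes with the largest absolute log2 fold change among those with adjusted p below 0.05 in the comparison described, the most abundant gene by TPM of each list, the check genes Epcam, Cdh1, Sftpc, Scgb1a1, Krt5 and Foxj1, Col1a1, and the 5 genes most alike in organoids and in tumoroids among genes with a mean TPM of at least 1. Vim, Myh11, Kera, Epyc, Cyp2f2, Prelp and the endothelial genes beyond Erg, Esam and Car4 were named outside this rule, after their values were seen. So were Rgs5, Notch3 and Smtn of the smooth muscle list and Wt1 and Lrrn4 of the mesothelial list. The same holds for Scgb3a2 and Ngfr in the check of labels, Actg2 beside Acta2, and Fmod and Aspn with transplantation.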

Additional observations from a re-analysis of the deposited data

Results flagged for a closer look

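Among 20 sets of levels examined (a member or the sum of the 10 members, in the 5 airway organoids or the 8 tumoroids), 5 held a culture that lay far from the others relative to the range of its group. Chance alone marks about 1 in 20 groups in this way, and the 4 marks in airway organoids are not independent, since they come from the same culture. In airway organoids the bronchiolar BASC Ad-Cre culture stood above the 4 tracheal cultures for Pdgfrb (19.04 TPM), Dcn (332.61 TPM), Lum (110.56 TPM) and the sum of the 10 members (537.86 TPM). It was also the only airway culture that did not come from the trachea, so tissue and culture cannot be told apart here.

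Among the 8 tumoroids, AT2-derived tumoroid 3 stood apart for Pdgfra, at 173.16 TPM. It was barely beyond the limit used. The cause was not tested.

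Ngfr, the nerve growth factor receptor gene of the basal list, was marked because its change from organoid to tumoroid differed between mixed BASC and AT2 in a direct test of that difference (log2 -8.2377, edgeR quasi-likelihood, Benjamini-Hochberg adjusted p = 0.0401). The call held in 7 of 15 alternatives, with adjusted p between 1.7e-10 and 0.165. It was lost in 8 of the 10 that leave out 1 culture, the exceptions being mixed BASC Ad-Cre and AT2-derived tumoroid 3. The level was at 39.9 and 38.3 TPM in the mixed BASC organoids and at 0.10, 0.02 and 0.08 TPM in their tumoroids. In AT2 it was at 0.06 and 0.24 TPM in organoids and at 0.04, 0.04 and 0.17 TPM in tumoroids. The cause was not tested.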

How the results depend on the processing

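Between alveolar and airway organoids, 19 alternatives were run: other size factors, no filter on low counts, DESeq2, limma on log2(TPM + 1) and log2(TPM + 0.1), 3 other groupings of the cultures, each of the 10 cultures left out in turn, and Ad-Cre cultures only. The last was chosen after seeing the data, to leave out the Ad-GFP aliquots of the same sorts. Alveolar and bronchiolar BASC, both from sorted BASC, stayed on opposite sides in it. Pdgfra (log2 fold change 2.02 to 2.61), Pdgfrb (1.62 to 2.14), Tnxb (4.53 to 9.08), Acta2 (1.33 to 1.88) and Acan (2.15 to 6.37) were called higher in 19 of 19. Lum was called in 17 and Pecam1 in 12. Dcn was called in 2 of 19, the tracheal cultures alone as airway group and the bronchiolar BASC culture left out, which are the same set of cultures. Where leaving out a culture left 1 sample in an arm, that sample was assumed to vary like the others. No paired analysis was possible because no leading number in the titles was shared by an AT2-derived with a mixed BASC-derived tumoroid, and organoid titles had none. Some other tumoroids shared one, and the T number after it, which restarts under each leading number, was not taken as a block. Ad-Cre and Ad-GFP cultures were aliquots of 1 sort, and only that comparison was paired, by its term for the sorted population.

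The number of genes called moved by more than 1.5 times in some settings. With DESeq2 it was 7 instead of 0 between AT2-derived and mixed BASC-derived tumoroids, 5 instead of 0 between Ad-Cre and Ad-GFP, and 2023 instead of 40 for the interaction of transplantation and origin. That interaction also gave 214 genes without a filter on low counts, 790 with limma on log2(TPM + 1) and 717 on log2(TPM + 0.1), and 0 to 720 with 1 culture left out, the highest without AT2-derived tumoroid 3. Alveolar against airway organoids with Ad-Cre cultures only gave 5252 genes instead of 10920, with fewer samples. Transplant tumoroids against Ad-Cre organoids only gave 1157 genes instead of 3777, with fewer samples. The cause of the other shifts was not tested.

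No member was called between AT2-derived and mixed BASC-derived tumoroids in any of 11 alternatives, and directions were not stable. With limma on log2(TPM + 1) and log2(TPM + 0.1) the log2 fold changes turned negative for Pdgfra (-0.51 and -0.57), Pdgfrb (-0.26 and -0.31), Lum (-0.36 and -0.40), Tnxb (-0.20 and -0.26) and Acta2 (-0.60 and -0.64). With 1 tumoroid left out in turn they ran from -2.37 to 1.43 (Pdgfra), -1.16 to 0.92 (Pdgfrb), -3.67 to 0.54 (Dcn), -0.89 to 0.50 (Lum), -0.95 to 0.67 (Tnxb), -0.98 to 0.65 (Acta2) and -1.12 to 0.45 (Pecam1). The cause was not tested.

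Between transplant tumoroids and organoids, Lum was called in 19 of 19 alternatives (-2.66 to -1.82) and Pecam1 in 13 of 19. Leaving out the bronchiolar organoid, its tumoroid or both gave the same fit, so these alternatives are not separate. Uncalled members changed sign: Pdgfra was 0.0714 without the bronchiolar cultures, and with Ad-Cre organoids only Tnxb was -0.29 and Acan -0.0856. With 1 culture left out Pdgfra ran from -1.12 to 0.18, Dcn from -1.38 to 0.09 and Tnxb from -0.23 to 1.69. In the interaction Acta2 ran from -0.11 to 1.52 with 1 culture left out, Tnxb was called in 6 of 15 alternatives and Acan in 1 (DESeq2, adjusted p = 0.0016, up to 0.551 over the 15). Over these 15 Dcn ran from 0.92 to 5.11, Pdgfra from 0.86 to 4.64, Pdgfrb from 0.70 to 2.77 and Lum from 1.05 to 2.93. Pecam1 ran from 0.50 to 2.09, Acan from 2.67 to 7.81 and Tnxb from 4.72 to 8.60.

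Between Ad-Cre and Ad-GFP without a term for the population, Pdgfra was -0.21, Dcn -0.56 and Lum -0.64. With 1 culture left out Pdgfra ran from -0.10 to 0.36, Pdgfrb from -0.10 to 0.29, Dcn from -0.43 to 0.80, Lum from -0.32 to 0.67 and Acan from -0.62 to 2.13. Leaving out either culture of a pair gave the same fit. Over the 14 alternatives Acan reached 3.87. None of these was called. Tnxb was at 0.41 where it was lowest. The cause was not tested.

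The log2 of the highest over the lowest tumoroid in summed TPM, 4.43, was 2.02 when the mean of log2(TPM + 1) over the members was used in place of the sum, and 2.89 to 4.43 with 1 tumoroid left out, the lowest without AT2-derived tumoroid 2. In summed TPM the highest organoid was 7.89-fold the lowest, and 3.87-fold without the AT2 Ad-GFP culture. As the mean of log2(TPM + 1) organoids ran from 2.50 to 4.33 and tumoroids from 1.90 to 3.92, so these ranges were of similar width. Scaling TPM by TMM gave 4.33 for the log2 of the highest over the lowest tumoroid. The difference between alveolar and airway organoids stayed within its pooled SD of the main value in these settings.

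Counts were low for Tcf21 and Cdh5, at most 4 and 10, and the airway levels of Pecam1, Tnxb and Acan rested on 9 to 33 counts.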

Other observations

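The autochthonous tumoroid, which entered no test, had 42.1 TPM of Pdgfra, 56.8 TPM of Pdgfrb, 65.9 TPM of Dcn, 39.8 TPM of Lum, 7.07 TPM of Tnxb, 176 TPM of Acta2, 8.95 TPM of Acan and 4.55 TPM of Pecam1. Its levels of Acta2, Acan and Pecam1 were the highest of the 8 tumoroids. Cdh5 had 0 counts in it, which allows up to 0.0562 TPM.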
